A study of Mus musculus with 6 samples.

Results

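The genes described here are 10 CC chemokines, Ccl2, Ccl3, Ccl4, Ccl5, Ccl6, Ccl7, Ccl9, Ccl12, Ccl17 and Ccl22, taken by symbol from a table of 22027 protein-coding genes. CC chemokines are small secreted proteins that draw leukocytes up a concentration gradient by binding G-protein-coupled receptors of the CCR family. Macrophages are a main source of them: Ccl2 and Ccl7 call monocytes through CCR2, Ccl3, Ccl4 and Ccl5 draw monocytes and T cells, Ccl3 and Ccl5 in part through CCR1, Ccl6 and Ccl9 act through CCR1 in mice, and Ccl17 and Ccl22 call T cells through CCR4. Transcription of many of these genes is induced by NF-kB, interferon or cytokine signalling, and several of the mRNAs are short-lived.

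RNA was measured in RAW 264.7, a single mouse macrophage-like line established from a tumour induced by Abelson murine leukaemia virus, whose genotype is given as WT for every sample. The titles name 3 libraries siTET3, from cells given 1 siRNA against Tet3, and 3 libraries siCTL, from cells given a non-targeting (NT) siRNA. Both groups received 10 pmol of siRNA with Lipofectamine RNAiMAX and were collected after 48 h. The treatment field names siTET3 for every sample, which leaves the titles as the basis of the grouping, and no label says that replicates were separate cultures, so p-values cover only the library-to-library spread, possibly a technical one.

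Values are normalised read counts, that is, gene counts divided by 1 size factor per library. Libraries held between 29587171 and 61709131 reads, so that 1 read was worth 0.634 to 1.27 units and 3 reads, the limit that a count of 0 allows, 1.90 to 3.82 units. Tet3 itself stood at 1939, 1980 and 1950 units in the libraries labelled siTET3 and at 2171, 1911 and 2027 units in siCTL. The groups overlapped, and the fold of 0.962 (95% interval 0.834 to 1.11) had a limma adjusted p of 0.699 and an exact two-sided permutation p of 0.4, where the smallest possible is 0.1. The overlap came from siCTL replicate 2: without it the libraries labelled siTET3 lay below both siCTL libraries, with a log2 change of -0.10 and a limma adjusted p of 0.354. In that setting 2389 of 11591 genes lay below in the same way and 2456 above. With the trend of each library with GC content removed, over all 6 libraries, the log2 change of Tet3 was 0.13. Tet3 mRNA did not pass the test with or without siCTL replicate 2, so the groups are called here by their labels. By limma 16 of 22 tested interferon-stimulated genes rose in the same libraries and none fell, where 0.293% of all genes rose and 0.0604% fell. However, 2 of these 22 were called when any 1 of the libraries labelled siTET3 was left out and 7 without siCTL replicate 3. Their summed level was 49104 to 51472 units in libraries labelled siTET3 against 23254 to 24791 units in siCTL.

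All 11 macrophage markers were measured, with summed levels of 508719 to 542541 units in libraries labelled siTET3 and 500266 to 595471 units in siCTL. None of the 11 passed limma in either direction, and none passed edgeR or DESeq2. At an unadjusted p under 0.05 by limma 1 passed, where 13.2% of all genes did. Cd3e, Ms4a1, Ly6g and Epcam, which define T cells, B cells, neutrophils and epithelium, were at 0 in every library. Summed markers reached at most 2.04 units in libraries labelled siTET3 and 1.90 in siCTL for T and NK cells, 19.4 units in libraries labelled siTET3 and 15.2 in siCTL for B cells, 194 units in libraries labelled siTET3 and 167 in siCTL for dendritic cells, and 61.1 units in libraries labelled siTET3 and 62.1 in siCTL for neutrophils. Replicate 2 of siCTL stood apart. Its expression leaned towards genes rich in G and C, by 0.71 log2 units between the 10th and 90th percentiles of GC content against -0.32 to 0.12 in the other libraries. It also held 20 genes above 100 units that lay under 10 in every other library, against 0 or 1 such genes in each of the others. The 6 fibroblast markers summed to 539.6 units there, with Col1a2 at 286 and Col3a1 at 144 but Col1a1, Dcn and Lum at 0, against 7.13 to 14.7 units in libraries labelled siTET3 and 13.9 units in the lowest siCTL library. Each change of a CC chemokine is therefore given with and without it. In bulk RNA, fewer cells of a type and less RNA per cell cannot be told apart.

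Of the 10 CC chemokines 8 were measurable, and their spread of levels was wide. Per kilobase of exon, Ccl3 averaged 70847 ± 2728 units in libraries labelled siTET3 and 81764 ± 11184 units in siCTL (SD, n = 3 each), and it made up 70.0% ± 0.847 of the summed per-kilobase level of the family in libraries labelled siTET3 and 69.9% ± 3.99 in siCTL. Ccl4 came next, at 12.3% ± 1.27 in libraries labelled siTET3 and 12.0% ± 1.60 in siCTL. Ccl9 held 10.7% ± 0.486 in libraries labelled siTET3 and 9.53% ± 1.83 in siCTL, and Ccl2 held 5.85% ± 0.122 in libraries labelled siTET3 and 7.42% ± 1.59 in siCTL. The other members each held under 1% in both groups. The order Ccl3, Ccl4, Ccl9, Ccl2, Ccl7, Ccl5, Ccl6, Ccl22 was the same in both groups. In libraries labelled siTET3 the per-kilobase values of Ccl4 (11121 to 13257) and Ccl9 (10332 to 11541) overlapped, while all other neighbours in the order were separated within each group. Per-kilobase levels use every annotated exon of a gene, so a level is understated where a long isoform is little used.

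Of the 8 members tested by limma over all 11591 genes that passed a mean of 10 units, 1 rose and none fell, where 0.293% of all genes rose and 0.0604% fell. At an unadjusted p under 0.05 the counts were 2 higher and 2 lower, where 13.2% of all genes passed in either direction. They were 1 higher and 0 lower by edgeR, where 0.285% of all genes were higher and 0.0604% lower, and 2 higher and 1 lower in the authors' deposited table, where 1.55% of all genes rose and 1.39% fell. With siCTL replicate 2 left out, limma called 2 higher and 2 lower, where 1.7% of all genes rose and 1.06% fell. The groups did not overlap for 4 of the 8 members, Ccl22 and Ccl5 above and Ccl2 and Ccl7 below, against 31.5% of all genes, 16.1% above and 15.5% below. Ccl12 and Ccl17 were listed at 0 in all 6 libraries and were not tested. The median log2 change of the 8 members was -0.09, and -0.12 without siCTL replicate 2, beside medians over all genes of -0.00 and 0.01.

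**Figure D1:**
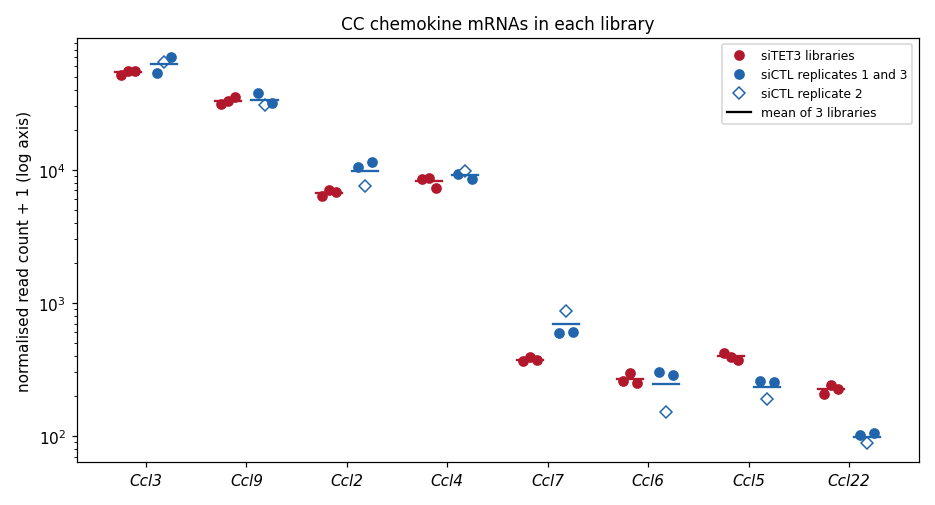
Normalised read count plus 1 of each measurable CC chemokine on a log axis, 1 point per library, with libraries labelled siTET3 left of siCTL for each gene. Ccl22 and Ccl5 lie higher in all 3 libraries labelled siTET3 than in all 3 siCTL libraries, and Ccl2 and Ccl7 lie lower. Ccl12 and Ccl17, at 0 in every library, are not drawn.

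The ligands of CCR4 are Ccl22 and Ccl17, neighbours among the members on mouse chromosome 8 and known together as attractants of regulatory and type 2 helper T cells. On GRCm38, Ccl22 occupies chr8:94745590-94751699 and Ccl17 chr8:94810453-94812036, both on the plus strand, with starts 64.9 kb apart. Ccl22 stood at 206, 240.3 and 223 units in the libraries labelled siTET3 and at 101, 87.4 and 105 units in siCTL. Every library labelled siTET3 held more Ccl22 than every siCTL library, and siCTL replicate 2 was the lowest of all. The change was 1.19 on the log2 scale (SE 0.14), a fold of 2.28 with a 95% interval of 1.81 to 2.86, and passed limma with an adjusted p of 0.0306. Without siCTL replicate 2 it was 1.11 (adjusted p = 0.00892), and the authors' deposited table gives 1.19 with an adjusted p of 2.1e-07. Leaving out any other library ended the call, with limma adjusted p-values of 0.105 to 0.292. So did scaling by library size alone (0.0571), testing without the filter on low values (0.0567) and taking the replicate number as a block (0.256). Of 17 alternatives 9 passed, although the log2 change stayed between 1.11 and 1.27 over all of them.

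Ccl17 had no read in any library, so its level lay under 1.90 units in the deepest library and under 3.82 in the shallowest. Ccr4, the receptor of both ligands, was also at 0 in every library. The 300 bases from 250 before to 50 after each RefSeq start are given for this pair, because 1 gene of it rose and the other had no read in the same libraries. They come from RefSeq on GRCm38.p6, plus strand, and cover chr8:94745434-94745733 for Ccl22 and chr8:94810203-94810502 for Ccl17. Capitals mark matches to the motifs searched.

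Ccl22: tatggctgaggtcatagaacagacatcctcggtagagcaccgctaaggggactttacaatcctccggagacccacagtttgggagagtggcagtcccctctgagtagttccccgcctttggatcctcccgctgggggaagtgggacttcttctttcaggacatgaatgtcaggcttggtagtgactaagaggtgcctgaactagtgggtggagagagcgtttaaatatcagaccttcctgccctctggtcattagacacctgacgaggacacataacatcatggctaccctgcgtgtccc
Ccl17: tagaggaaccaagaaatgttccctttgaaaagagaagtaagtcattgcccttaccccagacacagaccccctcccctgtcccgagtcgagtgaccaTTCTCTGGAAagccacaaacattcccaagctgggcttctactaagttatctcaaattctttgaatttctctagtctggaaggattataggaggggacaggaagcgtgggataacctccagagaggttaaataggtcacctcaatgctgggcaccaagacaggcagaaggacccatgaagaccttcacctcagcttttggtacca

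The motifs searched on both strands were the NF-kB consensus, AP-1 (TGANTCA), the interferon-stimulated response element core (GAAANNGAAA), and the STAT6 element (TTCNNNNGAA), and TATAAA on the gene's own strand. The Ccl17 window held TTCTCTGGAA, a match to the STAT6 letters, from 154 bases before the start. The Ccl22 window held none of the 5, which says only that these letters are not in this window. Of 32851 promoter windows of the same length, 6.95% held the STAT6 letters, 8.46% the NF-kB consensus, 7.81% AP-1, 3.44% the response element core and 8.32% TATAAA. A match is a description of the letters and not evidence of binding.

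The genes whose profile over the 6 libraries lay nearest to that of Ccl22, by Euclidean distance between centred log2 values among 11591 genes, were Parp14 at 0.220, Ddx58 at 0.231 and Ifi207 at 0.263. Ddx58 encodes the viral RNA sensor RIG-I, and Parp14 encodes an ADP-ribosyltransferase. Parp14 averaged 2513 ± 103 units in libraries labelled siTET3 and 1149 ± 67.6 units in siCTL (SD, n = 3 each). Ddx58 averaged 2702 ± 98.6 units in libraries labelled siTET3 and 1284 ± 92.7 units in siCTL. Ifi207, an interferon-inducible gene, averaged 2757 ± 218 units in libraries labelled siTET3 and 1283 ± 171 units in siCTL. They were chosen for their likeness to a gene already called, so their difference between the groups is given without a test.

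Ccl5, also called RANTES, attracts T cells and monocytes through receptors that include CCR1 and CCR3 and is induced by interferon and NF-kB. It lies on the minus strand at chr11:83525778-83530518, the end of a run of 5 CC chemokine genes. Its level was 421, 394 and 370.5 units in the libraries labelled siTET3 and 256, 190.0 and 253 units in siCTL. The groups did not overlap, and siCTL replicate 2 was again the lowest library. The log2 change was 0.77, a fold of 1.71 with a 95% interval of 1.33 to 2.19, and did not pass limma over all 6 libraries (adjusted p = 0.156). It passed without siCTL replicate 2, at 0.63 with an adjusted p of 0.0282, and in the authors' deposited table, with an adjusted p of 0.00286. Of 17 alternatives 3 passed, and with any other library left out the limma adjusted p was 0.180 to 0.644. The part of the interferon-stimulated genes, whose summed level was higher in the same libraries, in the values of Ccl5 and Ccl22 was not tested.

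The ligands of CCR2 are Ccl2, Ccl7 and Ccl12, which recruit inflammatory monocytes. Among the members, their genes follow each other on the plus strand of chromosome 11. Ccl2 lies at chr11:82035571-82037453, Ccl7 at chr11:82045712-82047525 and Ccl12 at chr11:82101845-82103400. The start of Ccl7 lies 10.1 kb after that of Ccl2, and the start of Ccl12 56.1 kb further on. Ccl12, which had no read in any library, has no counterpart of the same name in humans.

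Ccl2, the best known monocyte chemoattractant, stood at 6367, 7049 and 6807 units in the libraries labelled siTET3 and at 10544, 7493 and 11387 units in siCTL. All 3 libraries labelled siTET3 were below all 3 siCTL libraries, and siCTL replicate 2 lay close to them, at 0.683 of the mean of the other siCTL libraries. The log2 change was -0.52 over all libraries, a fold of 0.698 with a 95% interval of 0.528 to 0.923, and did not pass limma (adjusted p = 0.332). Without siCTL replicate 2 it fell by 0.70 on the log2 scale, with a limma adjusted p of 0.00403. With any other library left out the limma adjusted p was 0.193 to 0.660, and 3 of 17 alternatives passed. With all 6 libraries and the GC trend of each library removed, limma gave -0.76 and an adjusted p of 0.0490, a setting in which 0.466% of all genes passed, while the authors' deposited table gives -0.54 and 0.0936.

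Ccl7, another monocyte chemoattractant, stood at 363, 388 and 370.5 units in the libraries labelled siTET3 and at 591, 875 and 599 units in siCTL. Again the groups did not overlap, but here siCTL replicate 2 was the highest library, at 1.47 times the mean of the other siCTL libraries. The log2 change was -0.86, a fold of 0.553 with a 95% interval of 0.417 to 0.732, with a limma adjusted p of 0.167 over all libraries. Without siCTL replicate 2 it was smaller, at -0.67, and passed with an adjusted p of 0.0127. The authors' deposited table gives -0.88 and an adjusted p of 0.00231. Of 17 alternatives 3 passed, and with any other library left out the limma adjusted p was 0.180 to 0.660.

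The levels of Ccl2 and Ccl7 kept a near-constant ratio except in siCTL replicate 2. The log2 ratio of Ccl2 to Ccl7 within a library was 4.13, 4.18 and 4.20 in the libraries labelled siTET3 and 4.15, 3.10 and 4.25 in siCTL. Apart from siCTL replicate 2, the ratios of the groups overlapped. Within-library ratios between members with log2 changes of opposite sign differed more: the log2 ratio of Ccl22 to Ccl2 was -4.91 ± 0.04 in libraries labelled siTET3 and -6.62 ± 0.19 in siCTL (SD, n = 3 each). That of Ccl5 to Ccl2 was -4.09 ± 0.15 in libraries labelled siTET3 and -5.38 ± 0.10 in siCTL. These pairs were chosen after the values were seen and are given without a test.

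**Figure D2:**
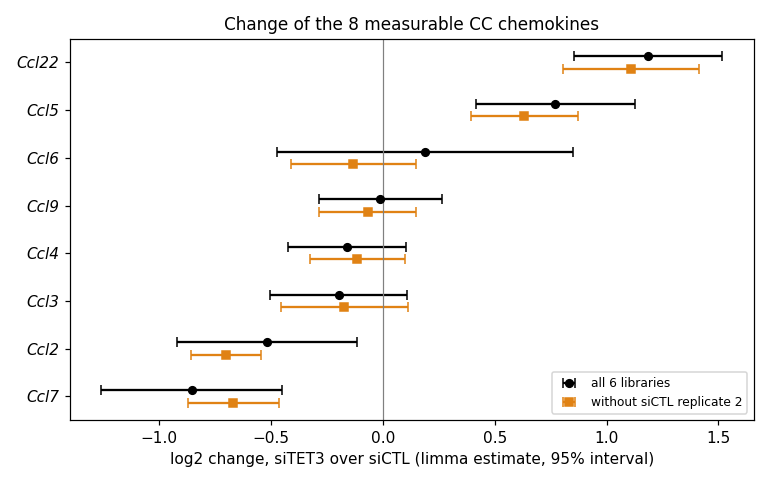
Log2 change, siTET3 over siCTL, of the 8 measurable CC chemokines with 95% intervals from limma, over all 6 libraries (black circles) and without siCTL replicate 2 (orange squares). Ccl22 lies at 1.19 and 1.11, Ccl2 and Ccl7 stay below 0, and the estimate of Ccl6 crosses 0 when siCTL replicate 2 is left out.

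Ccl3 and Ccl4, the macrophage inflammatory proteins, attract monocytes and T cells, and Ccl3 binds CCR1. Their genes start 13.2 kb apart on opposite strands, Ccl3 at chr11:83647844-83649355 on the minus strand and Ccl4 at chr11:83662584-83664683 on the plus strand. Ccl3 held 51856, 55465 and 55486 units in the libraries labelled siTET3 and 53336, 64346 and 70210 units in siCTL. The groups overlapped through siCTL replicate 1, and the fold of 0.872 (95% interval 0.705 to 1.08) had a limma adjusted p of 0.425. Ccl4 held 8590, 8749 and 7340 units in the libraries labelled siTET3 and 9273, 9793 and 8504 units in siCTL. Here too the groups overlapped, and the fold of 0.894 (95% interval 0.745 to 1.07) had a limma adjusted p of 0.437. After siCTL replicate 2 was left out, the log2 changes were -0.17 for Ccl3 and -0.11 for Ccl4, with adjusted p-values of 0.420 and 0.475. The log2 ratio of Ccl3 to Ccl4 was 2.73 ± 0.17 in libraries labelled siTET3 and 2.76 ± 0.26 in siCTL (SD, n = 3 each).

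Ccl9 and Ccl6 bind CCR1 and are rodent genes of the same branch of the family. They lie next to each other on the minus strand, Ccl9 at chr11:83572919-83578636 and Ccl6 at chr11:83587882-83593087, with starts 14.5 kb apart. Ccl9 held 31462, 32793 and 35143 units in the libraries labelled siTET3 and 37769.9, 30801 and 31922 units in siCTL. The groups overlapped, the fold was 0.992 with a 95% interval of 0.820 to 1.20, and the limma adjusted p was 0.955. With siCTL replicate 2 left out, its log2 change was -0.069 (adjusted p = 0.680) beside -0.01 with all libraries. Ccl6 held 258, 298 and 251 units in the libraries labelled siTET3 and 302, 151 and 286 units in siCTL. Its log2 change of 0.19 (limma adjusted p = 0.688) turned to -0.13 (adjusted p = 0.529) without siCTL replicate 2, which held 0.513 of the mean of the other siCTL libraries.

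Ccl9 exceeded Ccl6 by a log2 ratio of 6.94 ± 0.17 in libraries labelled siTET3 and 7.14 ± 0.46 in siCTL (SD, n = 3 each), on normalised counts not divided by length. The stretch around their starts that could be aligned best is shown because these neighbours resemble each other in sequence there and differ so far in level. It is read on the minus strand from RefSeq promoters on GRCm38.p6, from -59 to 14 of the Ccl6 start and from -18 to 48 of the Ccl9 start, with the start base counted as 0. Capitals mark mismatched bases. The alignment holds 58 identities, 9 mismatches and 7 gap positions, an identity of 78.4%.

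Ccl6: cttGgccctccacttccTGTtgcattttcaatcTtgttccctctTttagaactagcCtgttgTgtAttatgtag
Ccl9: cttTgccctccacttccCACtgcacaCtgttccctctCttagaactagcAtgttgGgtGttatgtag

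Upstream of that stretch the Ccl9 window held TGAATCA, a match to the AP-1 letters, from 53 bases before the start and a match to the NF-kB consensus from 35 bases before it. It also held TATAAA from 92 bases before the start. The Ccl6 and Ccl3 windows held none of the 5 motifs, and that of Ccl12 held TATAAA from 31 bases before the start. Promoter entries were matched for 6 of the 10 members, Ccl3, Ccl6, Ccl9, Ccl12, Ccl17 and Ccl22.

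**Figure D3:**
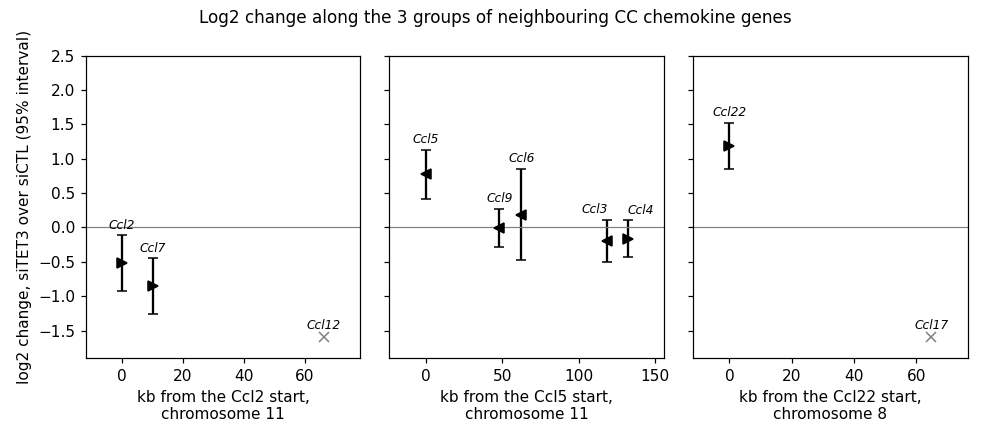
Log2 change, siTET3 over siCTL, with 95% intervals from limma over all 6 libraries, at the distance in kb of each CC chemokine start from the first gene of its run; arrowheads give the strand, and grey crosses at the foot mark Ccl12 and Ccl17, which had no read. Ccl2 and Ccl7 lie below 0, Ccl5 above it, and the intervals of Ccl9, Ccl6, Ccl3 and Ccl4 include 0.

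Log2 changes are given here beside position and GC content, and the part of position in them was not tested. The 5 genes of the run from Ccl5 to Ccl4 had log2 changes of 0.77, -0.01, 0.19, -0.20 and -0.16 in that order along the chromosome, whereas Ccl2 and Ccl7 were at -0.52 and -0.86. GC content of the exons was 51.9% for Ccl22 and 53.2% for Ccl5, and 43.8% for Ccl2 and 42.9% for Ccl7. Ccl9, at 43.8%, had a log2 change of -0.01. With the GC trend removed over all 6 libraries, the log2 changes were 1.23 for Ccl22, 0.85 for Ccl5, -1.14 for Ccl7, -0.76 for Ccl2 and -0.25 for Ccl9. Ccl22 and Ccl2 passed limma there, with adjusted p-values of 0.0275 and 0.0490. Ccl5, Ccl7 and Ccl9 did not, with 0.161, 0.277 and 0.484. An alternative chosen after seeing the data also left out siCTL replicate 2. The log2 changes were then 1.12 for Ccl22, 0.67 for Ccl5, -0.80 for Ccl7, -0.82 for Ccl2 and -0.18 for Ccl9. Their limma adjusted p-values were 0.00297, 0.0121, 0.00338, 0.000999 and 0.210. In that setting 3.15% of all genes passed.

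Chemokine mRNAs often carry ATTTA pentamers in the 3′ untranslated region, the letters read by decay factors such as tristetraprolin. By the GENCODE annotation on GRCm38 the pentamer occurred 5 times in Ccl3, Ccl9 and Ccl12, 4 times in Ccl6, 2 times in Ccl4, Ccl7 and Ccl22, and 1 time in Ccl2, and Ccl5 and Ccl17 had none. Of 11355 tested genes with an annotated region, 69.6% held at least 1, 50.4% at least 2 and 22.3% at least 5, over a median length of 1149 bases. The regions of the members are mostly shorter, 409 bases for Ccl3 and 275 for Ccl2 against 2465 for Ccl9 and 1813 for Ccl22. For Ccl3, the most abundant member per kilobase, 30 bases with 2 pentamers are given, the most in any such stretch. For Ccl2 and Ccl7, the pair that lay lower, no stretch of 30 bases held more than 1. There 1 of the equal stretches is shown. Pentamers are in capitals.

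Ccl3: gactcttcacttgaaattttATTTAATTTA
Ccl2: aatattaaacttATTTAacttattgatgtt
Ccl7: ttgcaagaatcagtgcaaagattttATTTA

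The 15 decay and stability factors on the list, tristetraprolin (Zfp36) included, were all tested and none passed limma, edgeR or DESeq2. At an unadjusted p under 0.05 by limma 0 were higher and 1 lower, where 13.2% of all genes passed. Zfp36 averaged 3270.5 ± 21.4 units in libraries labelled siTET3 and 3904 ± 487 units in siCTL, with a log2 change of -0.25 (limma adjusted p = 0.378). Zc3h12a, which encodes the endonuclease Regnase-1, had a log2 change of -0.25 and an adjusted p of 0.362, and Cnot1, the scaffold of the deadenylase complex, 0.31 and 0.375, with 0.18 and 0.166 without siCTL replicate 2. The median of the list was 0.19 beside -0.00 over all genes, and 0.10 beside 0.01 without siCTL replicate 2.

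Among 30 transcription regulators of chemokine genes, all tested, 2 rose and none fell by limma, where 0.293% of all genes rose and 0.0604% fell. Irf7, a master regulator of type I interferon genes, averaged 7193 ± 366 units in libraries labelled siTET3 and 2705 ± 380 units in siCTL, with a log2 change of 1.42 and an adjusted p of 0.00916. It was called without siCTL replicate 1 or without siCTL replicate 3, with limma adjusted p-values of 0.0484 and 0.0477, and was not called when any 1 of the libraries labelled siTET3 was left out, with 0.104 to 0.125. The median of the 30 was -0.08, beside -0.00 over all genes, and -0.01 beside 0.01 without siCTL replicate 2. Named after their values were seen, Nfkb1 and Rela, subunits of NF-kB, stood at log2 changes of -0.06 and -0.20 (limma adjusted p = 0.740 and 0.405), and Stat6, which relays interleukin-4, 0.06 and 0.680. With siCTL replicate 2 left out, the called regulators were 5, all higher, where 1.7% of all genes rose and 1.06% fell. Among them were Irf7, Bcl6, Stat2 and Rel, the last 3 named after their values were seen. Irf7 and Stat2 also stand on the interferon list, whose median log2 change was 1.54.

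On the receptor side, 5 of 15 CC chemokine receptor genes were tested and none passed limma, edgeR or DESeq2. At an unadjusted p under 0.05 by limma 2 were higher and 0 lower, where 13.2% of all genes passed. Ccr1, the receptor of Ccl3, Ccl5, Ccl6 and Ccl9, stood at 1462, 1361 and 1544 units in the libraries labelled siTET3 and at 1556, 369 and 1444 units in siCTL. Ccr2, the receptor of Ccl2, Ccl7 and Ccl12, stood at 55.0, 58.0 and 77.7 units in the libraries labelled siTET3 and at 39.4, 6.33 and 39.9 units in siCTL. Ccr3 stood at 74.4, 73.6 and 92.9 units in the libraries labelled siTET3 and at 85.6, 17.7 and 81.8 units in siCTL. All 3 were far lower in siCTL replicate 2 than in any other library, at 0.246, 0.160 and 0.212 of the mean of the other siCTL libraries for Ccr1, Ccr2 and Ccr3. Without that library their log2 changes were -0.04, 0.65 and -0.07, against 0.63, 1.48 and 0.66 with it. With the GC trend removed over all 6 libraries, the log2 change of Ccr2 was 0.99 (limma adjusted p = 0.506). Whether the fibroblast transcripts or the GC trend of siCTL replicate 2 caused these low values was not tested. Ccr1, Ccr3 and Ccr4 were named as receptors of the ligands, outside the rule for naming genes.

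Ccr7, the receptor that leads dendritic cells and T cells to lymph nodes, stood at 35.7, 41.7 and 24.2 units in the libraries labelled siTET3 and at 17.4, 8.87 and 8.24 units in siCTL. These levels were low. The groups did not overlap, and the log2 change of 1.52 did not pass limma (adjusted p = 0.294). Ccrl2, an atypical receptor, stood at 158, 184 and 173 units in the libraries labelled siTET3 and at 150.5, 103 and 132 units in siCTL, with a log2 change of 0.43 and an adjusted p of 0.374. The receptors' median log2 change was 0.66, and 0.28 without siCTL replicate 2.

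**Figure D4:**
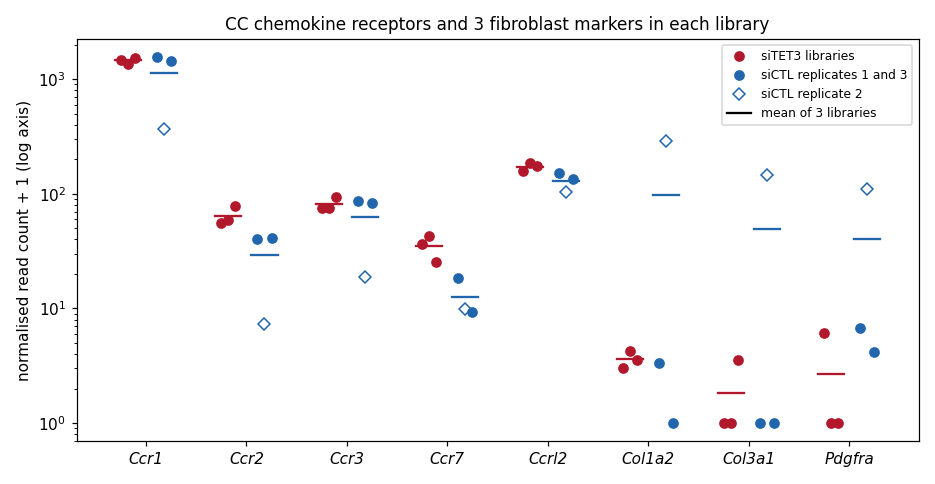
Normalised read count plus 1 on a log axis of 5 CC chemokine receptors and 3 fibroblast markers, 1 point per library, with libraries labelled siTET3 left of siCTL. Ccr1, Ccr2 and Ccr3 are lowest in siCTL replicate 2, the library in which Col1a2, Col3a1 and Pdgfra stand at 286, 144 and 109 units.

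Of 23 signalling genes downstream of these receptors found in the table, 22 were tested and none passed limma or edgeR. DESeq2 called 1 higher, where it called 180 of 11591 genes higher and 162 lower. At an unadjusted p under 0.05 by limma 2 were higher and 0 lower, where 13.2% of all genes passed. Gnaq, a G-protein alpha subunit, averaged 3109 ± 118 units in libraries labelled siTET3 and 2389 ± 91.2 units in siCTL, with a log2 change of 0.38 (limma adjusted p = 0.193). On leaving out siCTL replicate 2 it rose by 0.41, with an adjusted p of 0.0190, and so did Rgs2, a regulator of G-protein signalling named after its values were seen, by 0.58 with 0.0117. The change of Rgs1, another such regulator, was 0.53 with a limma adjusted p of 0.332, and 0.35 with 0.0896 without siCTL replicate 2.

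Of 8 tested proteases known to trim or release chemokines, none passed limma or edgeR. DESeq2 called 1 higher and 2 lower, where it called 180 of 11591 genes higher and 162 lower. At an unadjusted p under 0.05 by limma 1 was higher and 2 lower, where 13.2% of all genes passed. Mmp9, gelatinase B, stood at 9143, 9088 and 8794 units in the libraries labelled siTET3 and at 15572, 13499.5 and 14466 units in siCTL. The groups stood far apart, and the fold of 0.622 (95% interval 0.534 to 0.724) had a limma adjusted p of 0.0502, just short of the threshold of 0.05. Without siCTL replicate 2 it passed, at -0.74 with an adjusted p of 0.00189, as did Adam17, a sheddase, at 0.27 with 0.0424. Dpp4, named outside the rule, which trims the ends of several CC chemokines, was at 0 in every library.

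Further CC ligands were nearly absent: of 12, 9 were at 0 in every library and Ccl25 alone was tested. Ccl25 averaged 175 ± 29.4 units in libraries labelled siTET3 and 160.4 ± 48.6 units in siCTL (SD, n = 3 each), with a log2 change of 0.16 and a limma adjusted p of 0.708, and 0.38 and 0.275 without siCTL replicate 2. Ccl24 and Ccl28 were detected below the mean of 10 units. Of 13 chemokines of the other families in the table, 7 were tested and none passed limma, edgeR or DESeq2. At an unadjusted p under 0.05 by limma 0 were higher and 1 lower, where 13.2% of all genes passed. Cxcl2, a neutrophil attractant, averaged 6913 ± 236 units in libraries labelled siTET3 and 8417 ± 1264 units in siCTL, with a log2 change of -0.27 (limma adjusted p = 0.378), and -0.16 (0.207) without siCTL replicate 2. Cxcl10, an interferon-inducible attractant of T cells, averaged 92.1 ± 7.36 units in libraries labelled siTET3 and 64.2 ± 21.8 units in siCTL, with a log2 change of 0.57 (limma adjusted p = 0.385), and 0.26 (0.363) without siCTL replicate 2. Cxcl14 averaged 858 ± 16.6 units in libraries labelled siTET3 and 1207 ± 238 units in siCTL, with -0.47 (limma adjusted p = 0.328), and -0.32 (0.0620) without siCTL replicate 2.

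Summed over the 10 CC chemokines, the normalised read count was 99522 to 105991 units in the libraries labelled siTET3 and 112173 to 123265 units in siCTL. The sums did not overlap, and most of the sum was Ccl3 and Ccl9, neither of which passed the test. As a share of all counts in a library, the family made up 0.262% to 0.281% in the libraries labelled siTET3. In siCTL it made up 0.295%, 0.262% and 0.315%, so the shares overlapped only through siCTL replicate 2.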

How the data were processed

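RNA was measured in 3 libraries titled siTET3 and 3 titled siCTL. The deposited signal values are normalised counts, each library scaled by its own size factor by the authors: in each library 100% of values were whole multiples of 1 read, within 0.001 reads. The authors' log2 fold changes, p-values and adjusted p-values, and a test statistic score not used here, stand in the same table, which is named for DESeq2, and the fold changes were turned to siTET3 over siCTL. Per the submitters' processing notes the build was GRCm38 (mm10); for aligner, counting program and strand the entry is not given in the sources used here, so overlapping or antisense genes cannot be told apart. Ccl2 and Ccl6 each overlap a gene on the opposite strand with 0 shared exon bases. The other deposited sheets were not used.

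Since the values were normalised, limma 3.58.1 (R 4.3.3, variance trend) was fitted to log2(value + 1) by group alone. A mean of at least 10 units left 11591 genes, with Benjamini-Hochberg adjustment over all of them and a threshold of 0.05. Fold changes on this scale understate those of low genes. Recovered reads were tested with edgeR 4.0.16, which called 33 genes higher and 7 lower, and DESeq2 1.42.0, which called 180 and 162. The limma script was tested on simulated data. Positions come from GENCODE M21, matched by gene identifier without version. Named genes are all members, Tet3, up to 6 called genes of each list by p or the first 3 where none passed, and the 3 profiles nearest to a called member; others are said to be so. Members and lists were chosen with earlier results of these data known. Limits on counts of 0 cover counting error only. Some genes of the lists are not reported here.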

Additional observations from a re-analysis of the deposited data

How the results depend on the processing

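All 17 alternatives were run; the one without siCTL replicate 2 and with the GC trend removed was chosen after seeing the data. Limma called 34 genes higher and 7 lower. The counts were 180 and 162 with DESeq2, 224 and 141 without siCTL replicate 2 and with the GC trend removed, and 2 to 197 and 0 to 123 when 1 library was left out. Lower genes numbered 2 with library size alone and 4 with no filter. Chemokines called higher, 1 at first, were 2 with DESeq2, 2 without siCTL replicate 2 and with the GC trend removed, 0 with library size alone, 0 with no filter and 0 to 2 with 1 library left out. Chemokines called lower, 0 at first, were 1, 2, 1 with the GC trend removed and 0 to 2. Calls among signalling genes (0) were 1 with DESeq2, 2 under the added alternative and 0 to 2 with 1 library left out. Among transcription regulators (2) they were 5 and 0 to 5. Among proteases (0) they were 3, 1 and 0 to 2, and 1 each with a mean of at least 50, a pseudocount of 0.1 or a pseudocount of 10. Among interferon-stimulated genes (16) they were 2 to 22 with 1 library left out.

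The replicate numbers are shared by the groups but did not pair the libraries: same-numbered libraries deviated from their group means with correlations of 0.03, -0.06 and -0.10. With the replicate block, calls were 1 gene higher and 0 lower, 0 chemokines, 0 regulators and 1 interferon-stimulated gene, and no library pairing is claimed from it. Directions that turned were Ccl6, at -0.20 under the added alternative and -0.13 without siCTL replicate 2 (-0.13 to 0.37 with 1 library left out); Ccl9, at 0.073 with library size alone and from -0.069 to 0.078 with 1 library left out; Ccl25, at -0.049 without siCTL replicate 1 (up to 0.38 without siCTL replicate 2); Rgs1, at -0.040 with the GC trend removed; and Tet3, at 0.012 under the added alternative, 0.13 with the GC trend removed and 0.029 with library size alone. Apart from fewer libraries or genes tested, the cause was not tested. Library size alone moved the median of all genes to 0.08. Each group has 3 libraries, and members under about 3 reads could not be measured.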
